A study of Bos taurus with 12 samples.

Results

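The glucose and amino acid transporters described here are the solute carriers of the SLC1, SLC2, SLC5, SLC6, SLC7, SLC36 and SLC38 families. They were chosen by gene symbol alone: every gene probe of the array whose symbol began with 1 of these family names followed by a number was a member. The rule took 201 probes of the 61333 kept, which stood for 86 transcripts of 26323 and for 76 of 17511 gene symbols. No probe carried the symbol SLC2A7, SLC5A3 or SLC7A13.

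RNA of intercaruncular endometrium, biopsied on Day 15 of the estrous cycle, was hybridized for 12 cows, each to its own custom bovine array. Old females (OF) were nulliparous and 13 to 14 years old, and young females (YF) were primiparous and 4 to 5 years old, with 4 cows in each group. All 8 were Holstein clones of 1 donor, so that age and parity cannot be told apart and the groups stand for 1 nuclear genome. Contemporary cows (CP), whose age, parity and genotype the labels do not give, numbered 4, and cow 1111 was left out by the authors for a divergent phenotype, which left 3. The cycles of all 12 cows had been synchronized beforehand. Slide 1 of the arrays carried 1 OF, 2 YF and cow 1111, and slide 2 carried 3 OF, 2 YF and the other 3 CP.

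Carriers bring glucose and amino acids across the membranes of the uterine epithelium, and part of what they carry ends in the histotroph, the secretion that feeds the ruminant conceptus while it lies free in the lumen. SLC2 proteins let glucose pass down its gradient, SLC5, SLC1, SLC6 and SLC38 proteins couple uptake to sodium, SLC36 proteins couple it to protons, and SLC7 proteins either carry cationic amino acids alone or exchange amino acids as the light chain of a pair with an SLC3 heavy chain. In the ewe, endometrial carriers such as SLC2A1 are known to respond to progesterone and to interferon tau.

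A level below is the log2 processed intensity of a transcript, averaged over its probes, minus the 75th percentile of its array, so that 0 is the 75th percentile. Levels from different probes were not set against each other, save to name the largest part of a marker sum and the brightest transcript of a gene. The 75th percentile lay between 967.5 and 1596.7 intensity units. From 71.5% to 74.9% of an array's probes rose well above background, with 0 saturated. Where a probe that entered a level was dim in some cows compared, the difference of levels is not exact.

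The markers of endometrial cell types set 3 biopsies apart. All 11 epithelial markers were well above background on all 12 arrays. Their summed intensity, in units of the 75th percentile and with CLDN3 as its largest part, was 29.9, 112.9, 90.7 and 106.6 in YF 1069, 1070, 1072 and 1127, then 101.3, 61.4, 127.0 and 16.5 in OF 0233, 0234, 0245 and 2258, and 70.1, 84.0 and 76.5 in CP 1068, 1128 and 1129. OF 2258 was the lowest and YF 1069 the next. The sum over 11 smooth muscle markers, with ACTA2 as its largest part, was 34, 24.6, 67.0 and 24.6 in YF, 25.9, 369.7, 55.2 and 1049.6 in OF, and 49.4, 29.5 and 31.9 in CP, each in the same order of cows. OF 2258 and OF 0234 stood far above the other cows. The sum over 10 stromal markers, with COL3A1 as its largest part, was 351.2, 180.8, 194.1 and 161.5 in YF, 136.5, 204.1, 143.7 and 208.7 in OF, and 211.6, 261.4 and 269.6 in CP. YF 1069 was the highest. No probe carried the symbol ACTG2 in the annotation of the files, which does not show that the gene was not measured. Fewer cells of a type and less RNA per cell cannot be told apart in a biopsy.

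Between OF and YF, 3 epithelial markers were higher in OF and 8 lower (median log2 difference -0.25), and without OF 2258 it was 10 and 1 (median 0.37). All 11 smooth muscle markers were higher in OF (median 1.94), 1 of them, TAGLN, at an unadjusted limma p of 0.05 (log2 difference 2.45, SE 1.04, p 0.0438, adjusted p 0.999). Of all transcripts, 2.42% passed that threshold between OF and YF, the share to set beside each marker list of this comparison. TAGLN fell short of that threshold without OF 0234 (p 0.102), OF 2258 (1.49, p 0.0717), YF 1069 (p 0.0807), YF 1070 (p 0.0892) or YF 1127 (p 0.0931), with slide as a block (p 0.0803) and without the 3 biopsies that stood apart (0.50, p 0.282). Of 10 stromal markers, 1 was higher and 9 lower (median -0.27). Of 10 endothelial markers, 8 were higher and 2 lower (median 0.17, and -0.03 without YF 1127), and of 10 leukocyte markers 7 and 3 (median 0.11, and -0.15 with array weights). CLDN5 was the endothelial marker at an unadjusted p of 0.05 (0.54, p 0.0458), lost without OF 0233 (p 0.0755), OF 0245 (p 0.0594), OF 2258 (p 0.11), YF 1070 (p 0.0732), YF 1072 (p 0.0873) or YF 1127 (p 0.115), with slide as a block (p 0.0735), all groups in 1 fit (p 0.157) and the brightest probe (p 0.0577). Nerve and Schwann cell markers were 3 higher and 4 lower (median -0.01, and 0.02 with normexp background correction), and erythrocyte markers 3 and 2 (median 0.09, and -0.01 without OF 0234). Of 4 mast cell markers tested, 2 were higher and 2 lower, the lower ones at an unadjusted limma p of 0.05, beside 2.42% of all transcripts. CPA3 was at -1.66 (SE 0.26, limma p 0.00019, and -0.51 with normexp correction, p 0.00432) and HDC at -0.66 (p 0.0429). Leaving out any 1 cow but OF 2258 took HDC past 0.05 (p 0.0528 to 0.105), as did normexp correction (-0.25, p 0.187), median centring (p 0.0568) and all groups in 1 fit (p 0.0506), and the mast cell marker MS4A2 was dim on all 12 arrays. The part of these cell types in the results on the transporters was not tested.

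**Figure D1:**
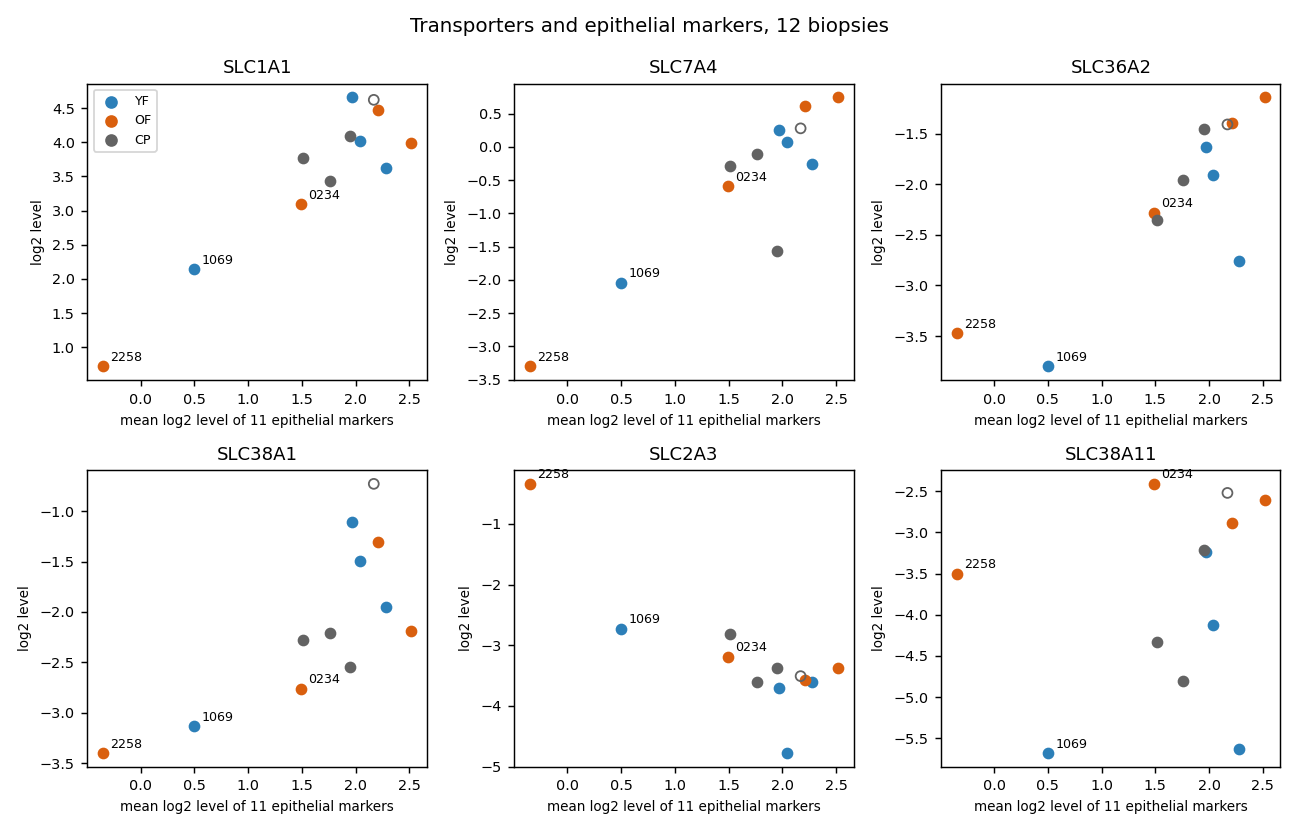
Levels of carriers (log2 units from the 75th percentile of the array) against the mean level of the 11 epithelial markers, 1 point per cow, coloured by group, with cow 1111 open. OF 2258 lies at the lowest epithelial level (-0.35) and YF 1069 next (0.50); the carriers plotted were chosen after their values were seen.

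Some carriers were lowest, or highest, in just these biopsies. Of the 51 transporter transcripts well above background on all 12 arrays, YF 1069 and OF 2258 were the lowest pair in 7 (13.7%, beside 9.21% of 18739 transcripts): SLC1A1, SLC1A4, both SLC36A2 transcripts, SLC38A1, SLC38A7 and SLC7A4. The same cows were the highest pair in 3 (5.88%, beside 9.98%). OF 0234 and OF 2258 were the lowest pair in 3 (5.88%, beside 2.16%), SLC38A6, SLC5A9 and SLC7A7, and the highest pair in 2 (3.92%, beside 6.06%), SLC6A13 and SLC7A2. The genes of these counts were named after their values were seen.

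A probe was well above background on all 12 arrays for 51 of 86 transporter transcripts (59.3%), beside 71.2% of all transcripts, a share that hangs on the probes as well as on the RNA. Another 26 were well above on some arrays, and 9 on 0. SLC1A6, SLC2A2, SLC5A5, SLC6A5, SLC6A12, SLC6A17, SLC7A1 and SLC7A9 were dim throughout, as was 1 of 2 SLC7A11 transcripts. SLC2A2 is the glucose carrier of liver and pancreatic islet, SLC5A5 the iodide carrier of thyroid, and SLC7A1 a carrier of arginine and lysine. A dim probe does not show that the gene was silent.

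The median SD of a tested transporter between the cows of a group was 0.47 in YF, 0.53 in OF and 0.36 in CP, beside 0.28, 0.32 and 0.27 for all transcripts tested. Many transporter levels include a dim probe, and dim spots repeated less closely than bright ones. The part of brightness in these SDs was not tested. Without OF 2258 the median SD in OF was 0.35, beside 0.24. Over the 11 cows in a group and among transcripts tested, the intracellular glucose carrier SLC2A8 was the most even (SD 0.14, range 0.51), and SLC5A11, a sodium-coupled inositol carrier, varied the most (SD 1.84, with OF 2258 dim), followed by SLC7A4 (SD 1.24, range 4.04). Among the 8 OF and YF, OF 2258 was the lowest cow for 20 of 58 transporters (34.5%, beside 24.6% of all transcripts) and the highest for 14 (24.1%, beside 26.7%).

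**Figure D2:**
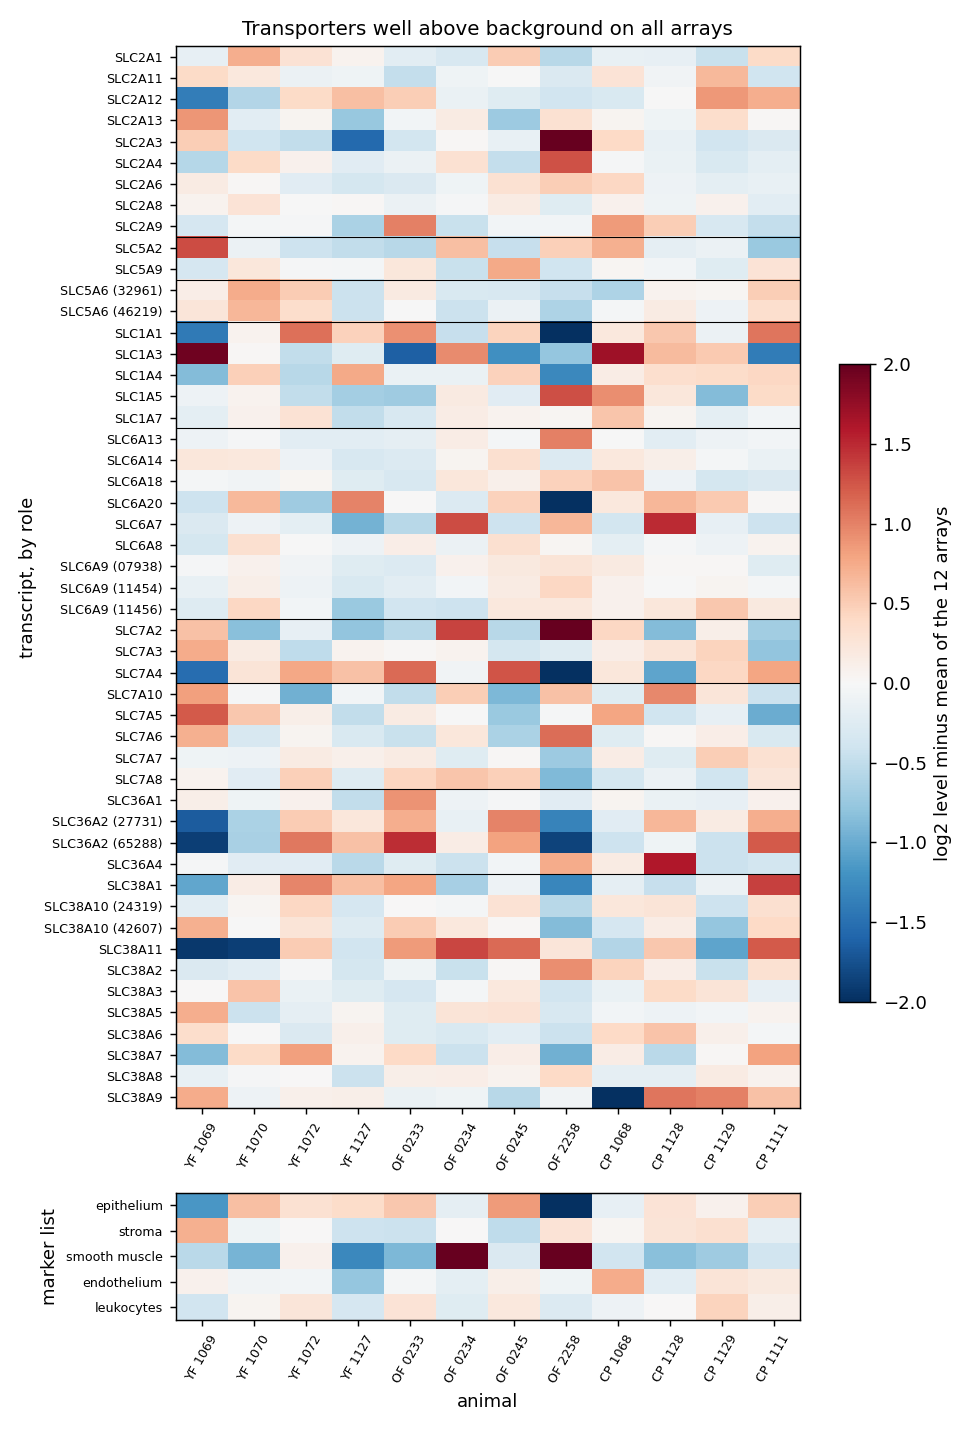
Level of transporter transcripts well above background on all 12 arrays, as the difference in log2 units from the mean of the 12 arrays (colour scale ending at 2 units either way), cows in columns and transcripts in rows by role, with the mean of 5 marker lists underneath. OF 2258 and YF 1069 are both low for SLC1A1, SLC7A4 and SLC36A2.

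OF were compared with YF to ask whether the supply of glucose and amino acids to the uterine lumen differed with age at the level of carrier RNA. SLC38A11, of the sodium-coupled neutral amino acid carriers, was higher in OF by 1.82 log2 units (SE 0.56, n = 4 and 4, limma p 0.0106). That size is not exact, since its probe 2 was dim in 2 of 4 YF, while the bright probe 1 differed by 1.90. SLC38A8 of the same family was the carrier whose 4 OF all lay above the 4 YF. FCROS is the rank statistic on fold changes that the study used. Coded here from its description, so that the calls are not the study's own, it called SLC38A11, SLC2A3 and SLC5A12 over-expressed in OF and SLC38A4, SLC1A3 and SLC5A7 under-expressed. The glucose carrier SLC2A1 and the amino acid carriers SLC7A5, SLC7A8, SLC1A1, SLC1A4, SLC1A5 and SLC38A2, known from uterine epithelium, passed neither test, though SLC2A1 and SLC7A5 did in some alternatives.

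Of the 86 transcripts, 58 (52 genes) were bright enough to be tested, which asked that 1 probe stand well above background in all cows of OF or all of YF. The limma fit called 0 of the 58 at an adjusted p of 0.05, beside 0% of the 19755 transcripts tested, and the smallest adjusted p was 0.999 among transporters and 0.667 among all. At an unadjusted limma p of 0.05, 1 transporter passed (1.72%), beside 2.42% of all. All OF lay above all YF for 1 transporter (1.72%), beside 0.931%, and below for 0, beside 0.597%. FCROS, run on all transcripts with no filter, called 3 of 86 over-expressed (3.49%), beside 2.88%, and 3 under-expressed (3.49%), beside 2.06%. These shares lay near those of the array as a whole, and are no result about the transporters as a group.

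Those counts moved when 1 cow was left out. The count at an unadjusted p of 0.05 was 4 without YF 1127 (beside 2.70% of all transcripts), 3 without OF 0234 (beside 2.14%), and 2 without OF 0245, OF 2258, YF 1069, YF 1070 or YF 1072 (beside 2.81%, 2.39%, 2.08%, 1.95% and 2.61%). The count of carriers with all OF above all YF was 3 without OF 0233 or YF 1069 (beside 3.96% and 2.11% of all) and 2 without OF 2258 or YF 1072 (beside 1.92% and 1.97%), so that the share of all transcripts rose as well. The count with all OF below was 2 without OF 0234, OF 0245 or YF 1072 (beside 1.43%, 1.23% and 1.77%) and 1 without YF 1070 or YF 1127 (beside 1.29% and 2.29%). FCROS called 8 of 86 over-expressed without OF 2258 (beside 2.64% of all), 7 without OF 0234 (beside 2.53%) and 5 without OF 0245, YF 1072 or YF 1127 (beside 3.01%, 2.79% and 2.63%), and it called 9 under-expressed without YF 1127 (beside 2.83%) and 5 without OF 0245 or OF 2258 (beside 2.18% and 1.88%). These FCROS counts include dim transcripts and more than 1 transcript of a gene. The 8 held SLC6A17, dim on all 12 arrays, both SLC36A2 transcripts, and SLC1A2, SLC36A3 and SLC5A12, well above background on 2, 3 and 6 arrays. The 7 held the last 3 and SLC1A6, dim on all 12. No result is drawn from them. With OF 2258, OF 0234 and YF 1069 all left out, 4 of 59 transporters passed the unadjusted p (6.78%, beside 3.15% of all), 7 had all OF above (11.9%, beside 8.88%), 4 had all OF below (6.78%, beside 6.66%), and FCROS called 5 and 5 (beside 2.87% and 1.98% of all transcripts).

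The transporters did not shift together. Their median log2 difference was -0.04, beside 0.01 for all transcripts, with 26 higher and 32 lower in OF, and the sign turned with normexp background correction (0.05), with dim transcripts kept (0.05) and without OF 2258 (0.03). The median size of a difference was 0.30, beside 0.15 for all, and 4 transporters (6.9%) differed by over 1 log2 unit, beside 2.76%. These were SLC38A11, SLC38A4, SLC5A11 and SLC2A3. None of the 4 differences is exact, since a probe of each was dim in some cows, and SLC38A4 and SLC5A11 passed the filter through YF alone. No result is drawn from that share. For 45 of the 58 the size of the difference was under 0.5. The 95% confidence interval reached a median of 0.72 log2 units to either side, so that differences of that size would pass unseen for many carriers. Leaving out OF 2258 turned the sign of 11 transporters.

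**Figure D3:**
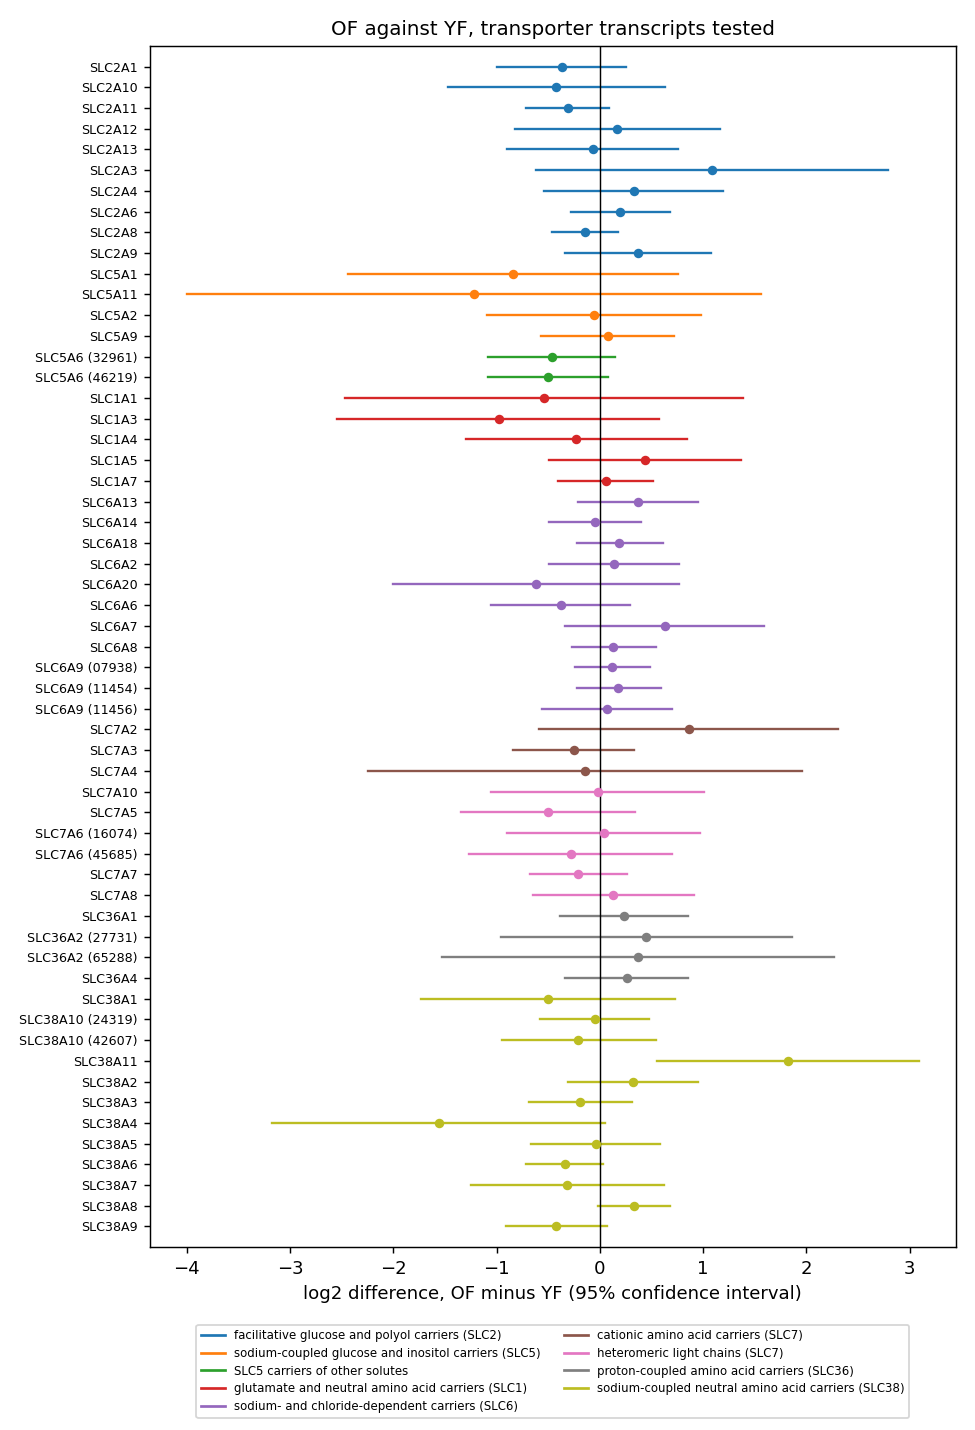
Log2 difference OF minus YF of tested carriers with its 95% confidence interval from limma, grouped by role. SLC38A11 (1.82) is the carrier at an unadjusted p of 0.05.

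SLC38 carriers take up glutamine and other small neutral amino acids with sodium. SLC38A11 is a member whose substrates are little known. It lies at chr2:31391774-31446946 of build UMD3.1, and the 60 bases of each of its probes are printed because its result rests on both; the pair shares no stretch of 15 bases or more and holds no AATAAA, which would be in capitals.
SLC38A11 probe 1: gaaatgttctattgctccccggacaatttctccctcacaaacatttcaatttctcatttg
SLC38A11 probe 2: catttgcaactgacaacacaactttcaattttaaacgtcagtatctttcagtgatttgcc

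The level of SLC38A11 was -5.68, -5.63, -3.24 and -4.12 in YF 1069, 1070, 1072 and 1127, -2.89, -2.41, -2.61 and -3.50 in OF 0233, 0234, 0245 and 2258, and -4.33, -3.21 and -4.80 in CP 1068, 1128 and 1129. Of the OF, 3 lay above every YF, and OF 2258 lay below YF 1072, so that the groups overlapped in that pair of cows. The mean was -4.67 in YF (SD 1.2) and -2.85 in OF (SD 0.47), a log2 difference of 1.82 (SE 0.56, 95% confidence interval 0.55 to 3.09, limma p 0.0106, adjusted p 0.999, exact permutation p 0.0571, two-sided, where 0.0286 is the smallest that 4 against 4 allows). FCROS called it over-expressed in OF at 2.84-fold (f-value 0.997), and in all 18 alternatives run. The limma p ran from 0.00107 to 0.0523 over the alternatives, the highest with the 3 biopsies that stood apart left out (log2 difference 1.59). Within slide 2 the difference was 1.97, with slide as a block 1.92, and with normexp correction 1.07. Read alone, the bright probe 1 differed by 1.90, with all OF above all YF. Probe 2 was dim in 2 of 4 YF, so that its 1.73 is not exact. The same holds for the mean difference of 1.82, its confidence interval and the 2.84-fold, which include that probe.

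**Figure D4:**
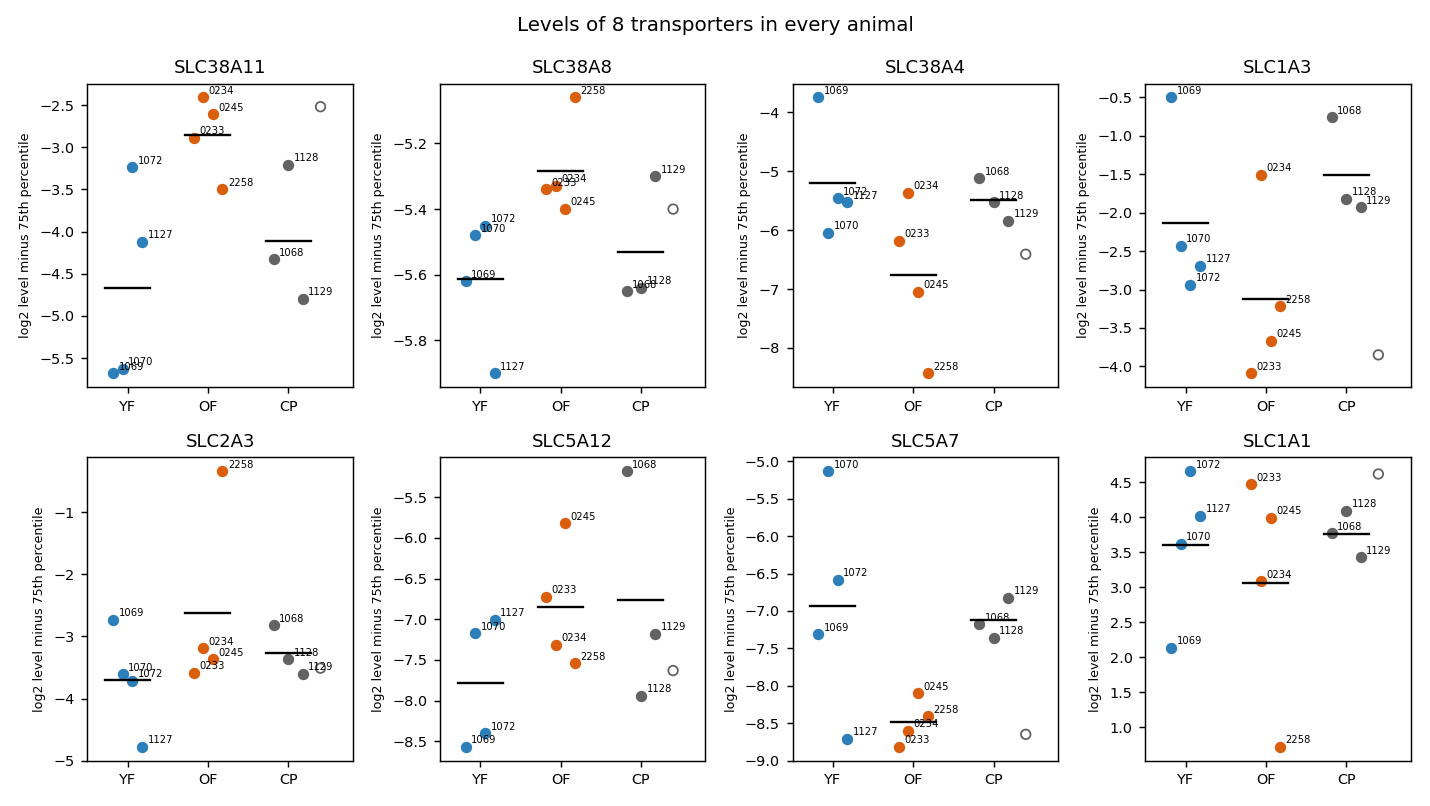
Level of named carriers in each cow (log2 units from the 75th percentile of the array), 1 panel a carrier, YF, OF and CP side by side, with the mean of each group as a bar and cow 1111 as an open point. For SLC38A11, OF 2258 at -3.50 lies below YF 1072 at -3.24.

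SLC38A8, a carrier of glutamine best known from the retina, lies at chr18:10355405-10385409. Its level was -5.62, -5.48, -5.45 and -5.90 in YF and -5.34, -5.33, -5.40 and -5.06 in OF, in the order above. Every OF lay above every YF, by as little as the step from -5.45 to -5.40, and in the average of the probes alone: on probe 1, OF 0245 (-5.96) lay below YF 1072 (-5.83), and on probe 2, OF 0233 (-5.13) lay below YF 1070 (-4.83). OF differed from YF by 0.33 log2 units (SE 0.15, limma p 0.064, adjusted p 0.999, exact permutation p 0.0286), and it ran from 0.20 to 0.51 over the alternatives. The CP, at -5.65, -5.64 and -5.30, spanned both groups.

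SLC38A4, a system A carrier of small neutral amino acids that is abundant in placenta, lies at chr5:33619909-33654583. Its probes are printed because FCROS called it; they share no stretch and hold no AATAAA.
SLC38A4 probe 1: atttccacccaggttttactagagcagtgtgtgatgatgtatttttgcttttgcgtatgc
SLC38A4 probe 2: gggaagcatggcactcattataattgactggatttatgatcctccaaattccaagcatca

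The level of SLC38A4 was -3.75, -6.05, -5.46 and -5.53 in YF and -6.18, -5.37, -7.05 and -8.43 in OF. OF 0234 lay above 3 of the 4 YF, the other OF lay below all of them, and the probes were dim in 2 OF, so that it passed the filter through YF. The means differed by -1.56 log2 units, a difference that is not exact and whose limma p carries no weight with 2 of 4 OF dim. FCROS called it under-expressed (f-value 0.00309), in 17 of 18 alternatives and not with normexp correction (log2 difference -0.26), though the fold itself was not measured. That difference was -1.0 without OF 2258, -1.08 without YF 1069, -0.22 with array weights and -2.02 both without OF 0234 and within slide 2.

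Of the 11 SLC38 genes, all tested, 3 were higher in OF and 8 lower (median -0.19), and 4 and 7 with normexp correction. SLC38A6 was at -1.11, -1.47, -1.75 and -1.36 in YF and -1.71, -1.77, -1.67 and -1.90 in OF. The OF were close together near the lowest YF, with a log2 difference of -0.34 (SE 0.16, limma p 0.0674, exact permutation p 0.0857; limma p 0.0238 without YF 1072 and 0.431 without the 3 biopsies, where it was -0.16). SLC38A1, a system A carrier of glutamine, was at -3.13, -1.95, -1.11 and -1.49 in YF and -1.31, -2.76, -2.19 and -3.40 in OF, lowest in OF 2258 and YF 1069, with a log2 difference of -0.50 (SE 0.54, limma p 0.382), -0.17 without OF 2258 and -0.94 with array weights (p 0.0389). FCROS called it under-expressed without OF 0233 and without YF 1069. SLC38A2, a system A carrier induced by amino acid shortage, differed by 0.32 (p 0.275), and SLC38A7, a lysosomal exporter of glutamine, by -0.32 (p 0.458). Without OF 2258 these were 0.05 and -0.07, and with array weights -0.16 and -0.70 (p 0.0398 for SLC38A7).

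SLC1 proteins carry glutamate or exchange neutral amino acids. SLC1A3, a glutamate and aspartate carrier best known from glia, lies at chr20:37596604-37679976. Its probes are printed because the pair tests nearly the same stretch of RNA: the capitals mark 52 bases that both hold, so that their like results are not independent.
SLC1A3 probe 1: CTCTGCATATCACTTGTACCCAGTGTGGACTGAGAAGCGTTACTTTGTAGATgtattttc
SLC1A3 probe 2: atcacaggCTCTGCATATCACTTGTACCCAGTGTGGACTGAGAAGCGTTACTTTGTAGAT

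The level of SLC1A3 was -0.50, -2.43, -2.94 and -2.69 in YF and -4.09, -1.51, -3.67 and -3.22 in OF. YF 1069 was the highest and OF 0234 the next, while the other OF lay below every YF. OF differed from YF by -0.98 log2 units (SE 0.68, limma p 0.185, adjusted p 0.999, exact permutation p 0.286). FCROS called it under-expressed at 0.506-fold (f-value 0.00586), in 15 of 18 alternatives: the call was lost without YF 1069, without OF 0233 and at a fold of 2, and with array weights in limma the difference was 0.49, the other way. It was -1.52 without OF 0234 (p 0.0332) and -1.19 without the 3 biopsies (p 0.00235).

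In the other SLC1 carriers the groups overlapped. SLC1A1, a glutamate and cysteine carrier of epithelia, was at 2.14, 3.62, 4.66 and 4.02 in YF and 4.47, 3.09, 3.99 and 0.72 in OF, lowest in OF 2258 and YF 1069. Its log2 difference was -0.54 (SE 0.84, limma p 0.539), and 0.24 without OF 2258. SLC1A4, an exchanger of alanine, serine and cysteine, was at 0.75, 2.10, 1.06 and 2.38 in YF and 1.49, 1.49, 2.07 and 0.32 in OF (log2 difference -0.23, p 0.636, and 0.11 without OF 2258). SLC1A5, the exchanger that brings in glutamine, was at -0.12, 0.05, -0.52 and -0.71 in YF and -0.73, 0.15, -0.25 and 1.27 in OF, highest in OF 2258, with a log2 difference of 0.44 (SE 0.41, limma p 0.313), 0.05 without that cow and -0.10 without the 3 biopsies. Of 5 SLC1 genes tested, 2 were higher in OF and 3 lower (median -0.23, and 0.05 without OF 2258).

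SLC6 proteins couple uptake to sodium and chloride and carry amino acids, taurine, creatine and transmitters. Of 10 tested, 6 were higher in OF and 4 lower (median 0.10, and -0.13 without YF 1127), and 0 passed limma at an unadjusted p of 0.05 or FCROS. The proline carrier SLC6A7 differed by 0.63 (SE 0.42, limma p 0.173), by 1.28 with array weights (p 0.0121) and by -0.07 with the 3 biopsies that stood apart left out, and FCROS called it over-expressed without OF 0245. SLC6A20, a carrier of proline and other imino acids, differed by -0.62 (SE 0.61, p 0.338) and the taurine carrier SLC6A6 by -0.38 (SE 0.29, p 0.233). SLC6A6 was well above background in 3 of 4 OF, so that it passed the filter through YF alone. Its difference is therefore not exact and its p carries no weight. Without OF 2258 the differences were -0.06 for SLC6A20 and -0.17 for SLC6A6, and with normexp correction SLC6A6 differed by 0.01. FCROS called SLC6A20 under-expressed without YF 1069 and without YF 1072. SLC6A14, which takes up neutral and cationic amino acids alike, differed by -0.05 (SE 0.20, p 0.822). For SLC6A9, a glycine carrier, the brightest of 3 transcripts differed by 0.07 (SE 0.28, p 0.812, and -0.31 with array weights); its position on chromosome 13 is not that of the other two, on chromosome 3, so that its name is uncertain.

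SLC7 carriers of cationic amino acids bring in arginine, the substrate of nitric oxide and polyamine synthesis. SLC7A2, of this kind, was at -2.75, -4.17, -3.51 and -4.13 in YF and -3.90, -1.99, -3.89 and -1.34 in OF. OF 2258 and OF 0234, the biopsies with the most smooth muscle signal, were the highest. The means differed by 0.86 log2 units (SE 0.63, limma p 0.209), 0.38 without OF 2258, 0.04 without the 3 biopsies and 1.48 with array weights (p 0.0122). FCROS called SLC7A2 over-expressed in 6 alternatives: normexp correction, quantile normalization, the brightest probe, dim transcripts left out, without OF 0233 and without OF 0245. SLC7A4, an orphan of the cationic branch, was at -2.04, -0.25, 0.26 and 0.07 in YF and 0.62, -0.59, 0.75 and -3.30 in OF, lowest in OF 2258 and YF 1069 (log2 difference -0.14, SE 0.92). Without OF 2258 it was 0.75, the other way, and FCROS called it over-expressed there and without the 3 biopsies. Of 3 cationic carriers tested, 1 was higher in OF and 2 lower (median -0.14, and 0.07 with normexp correction).

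SLC7 light chains exchange amino acids together with a heavy chain. SLC7A5, which brings in leucine, was at 2.50, 1.80, 1.38 and 0.77 in YF and 1.43, 1.26, 0.52 and 1.24 in OF, so that the OF lay within or just below the range of YF. The log2 difference was -0.50 (SE 0.37, limma p 0.209), and -0.78 without YF 1127 (p 0.0457). FCROS called it under-expressed there and with normexp correction. SLC7A8, a basolateral exchanger of neutral amino acids, was at -2.93, -3.23, -2.53 and -3.25 in YF and -2.57, -2.45, -2.52 and -3.88 in OF, where OF 2258 lay far below 3 like values (log2 difference 0.13, SE 0.34, limma p 0.715, and 0.47 without OF 2258). SLC7A6, an exchanger of cationic for neutral amino acids, differed by 0.04 (p 0.932), and -0.32 without that cow. Of 5 light chains tested, 2 were higher in OF and 3 lower (median -0.02, and 0.04 with normexp correction). The heavy chains SLC3A2 and SLC3A1 differed by 0.10 and 0.03.

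SLC36 proteins move small amino acids with protons, out of lysosomes or across the cell surface. All 3 genes tested were higher in OF (median 0.26), and 2 of 3 with array weights, where SLC36A4 was at -0.09, and without OF 0233, though 0 passed limma at an unadjusted p of 0.05 or FCROS. SLC36A2, a carrier of glycine and proline, was at -3.80, -2.76, -1.63 and -1.91 in YF and -1.40, -2.28, -1.14 and -3.47 in OF. YF 1069 and OF 2258 were the lowest, and the log2 difference was 0.45 (SE 0.62, limma p 0.485). It was 0.91 without OF 2258. FCROS called 1 or both SLC36A2 transcripts over-expressed there, without OF 0234, YF 1072 or YF 1127, and without the 3 biopsies.

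SLC2 proteins are the facilitative carriers of glucose. Of 10 tested, 5 were higher in OF and 5 lower (median 0.05, and -0.04 without OF 2258). SLC2A1, the main glucose carrier of many epithelia, was at 2.04, 2.94, 2.50 and 2.28 in YF and 2.0, 1.89, 2.72 and 1.66 in OF. Of the OF, 3 lay below every YF and OF 0245 lay above all but YF 1070. The log2 difference was -0.37 (SE 0.27, limma p 0.208, 95% confidence interval -1.0 to 0.25), -0.59 without OF 0245 (p 0.0376) and -0.61 with array weights (p 0.0134). SLC2A4, the carrier moved to the surface by insulin, differed by 0.33 (SE 0.38, p 0.408, -0.01 without OF 2258 and -0.38 without the 3 biopsies), SLC2A8 by -0.14 (SE 0.14, p 0.346), and SLC2A9, a urate carrier, by 0.37 (SE 0.31, p 0.264), 0.07 without OF 0233 and -0.12 with array weights. Probe 2 of SLC2A9 was well above background in 0 YF and 1 OF, and probe 1 of SLC2A4 in 1 YF and 1 OF, so that both differences are not exact. The bright probes differed by 0.18 for SLC2A9 and 0.26 for SLC2A4.

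SLC2A3, a glucose carrier of high affinity, lies at chr5:101896622-101909500. Its probes are printed because they differ in brightness: probe 1 was well above background in 1 YF, 1 OF and 0 CP, and probe 2, which holds AATAAA (in capitals), on all arrays of these groups.
SLC2A3 probe 1: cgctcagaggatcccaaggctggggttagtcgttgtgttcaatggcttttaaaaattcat
SLC2A3 probe 2: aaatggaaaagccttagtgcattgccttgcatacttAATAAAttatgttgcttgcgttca

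The level of SLC2A3 was -2.73, -3.61, -3.71 and -4.78 in YF, -3.58, -3.19, -3.37 and -0.34 in OF, and -2.82, -3.37 and -3.60 in CP. OF 2258 stood far above the other 10 cows, and the other 3 OF lay among the YF. On the mean of both probes, OF differed by 1.09 log2 units (SE 0.75, limma p 0.182, adjusted p 0.999, exact permutation p 0.314), and 0.33 without OF 2258. Read alone, the bright probe 2 differed by 0.73, and the 1.44 of probe 1 is not exact, nor is the mean that holds it. FCROS called SLC2A3 over-expressed (f-value 0.98), in 10 of 18 alternatives. The call was lost without OF 2258, YF 1072 or YF 1127, and with normexp correction, the brightest probe, dim probes left out of the mean, no trimming or the 3 biopsies left out (log2 difference 0.55).

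SLC5 proteins draw glucose, inositol and other solutes in with sodium. Of 4 glucose and inositol carriers tested, 1 was higher in OF and 3 lower (median -0.45, and 0.21 with the 3 biopsies left out). Of these, SLC5A1 and SLC5A11 passed the filter through YF alone, so that the median of -0.45 is not exact. SLC5A1, the carrier that draws glucose from the gut, was at -6.08, -4.95, -4.95 and -6.00 in YF and -5.39, -6.67, -4.97 and -8.32 in OF. OF 2258 was the lowest, and OF 0233 and OF 0245 lay among the YF (log2 difference -0.84, -0.18 without OF 2258 and 0.13 without the 3 biopsies). It was dim in 2 of 4 OF, so that the difference is not exact. FCROS called it under-expressed without OF 0233, OF 0245 or YF 1127. SLC5A11 was at -4.06, -1.60, -3.04 and -3.38 in YF and -2.82, -4.21, -1.95 and -7.99 in OF. Both probes were dim in OF 2258, so that the log2 difference of -1.22 is not exact, and it was 0.03 without that cow. FCROS called SLC5A11 under-expressed without OF 0245. The vitamin carrier SLC5A6 was the 1 gene tested among SLC5 carriers of other solutes, with a log2 difference of -0.50 (SE 0.25, limma p 0.0812), called under-expressed by FCROS without YF 1127.

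A pair of SLC5 carriers too dim for limma between OF and YF were called by FCROS. SLC5A12, a carrier of lactate and other monocarboxylates, lies at chr15:58144415-58195706, and SLC5A7, which draws choline into cholinergic nerve endings, at chr11:44876761-44897731. Their probes are printed because 1 of each pair was dim on all arrays of the 3 groups; the capitals mark AATAAA.
SLC5A12 probe 1: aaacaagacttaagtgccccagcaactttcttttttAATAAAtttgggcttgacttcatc
SLC5A12 probe 2: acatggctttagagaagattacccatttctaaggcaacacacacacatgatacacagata
SLC5A7 probe 1: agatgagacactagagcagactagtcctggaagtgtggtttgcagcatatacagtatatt
SLC5A7 probe 2: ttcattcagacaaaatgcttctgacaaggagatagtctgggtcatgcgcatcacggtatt

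SLC5A12 was at -8.57, -7.17, -8.40 and -7.01 in YF and -6.72, -7.31, -5.82 and -7.54 in OF. The groups overlapped, and a probe was well above background in 1 YF and 3 OF. FCROS called it over-expressed (f-value 0.991), in 11 of 17 alternatives; with 3 of 4 YF dim, the fold itself was not measured. SLC5A7 was at -7.31, -5.13, -6.58 and -8.71 in YF and -8.82, -8.60, -8.10 and -8.41 in OF. The OF were all dim and YF 1127 was as low as they were. FCROS called it under-expressed at 0.238-fold (f-value 0.00369), in 16 of 17 alternatives and not with normexp correction. A probe was well above background in 2 of 4 YF and in 0 OF, so that the fold itself was not measured.

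CP were compared with YF as other cows sampled on the same day of the cycle, all 3 on slide 2. The limma fit called 0 of 58 transporters at an adjusted p of 0.05, beside 0% of 19993 transcripts. At an unadjusted p of 0.05, 2 of 58 passed (3.45%), beside 3.03%, and 1 of the 2 was SLC5A1, dim in 1 of 3 CP. All CP lay above all YF for 0 transporters, beside 1.51%, and below for 1 (1.72%), beside 2.32%. FCROS was run on OF and YF alone. The count at an unadjusted p was 5 without CP 1129 (beside 2.91% of all), 4 without YF 1069 (beside 4.53%), 1 without CP 1068 (beside 4.87%) and 0 without YF 1072 (beside 2.43%). The count with all CP above was 5 without CP 1129 (beside 3.68%), 3 without YF 1070 (beside 3.02%), 2 without YF 1069 (beside 4.22%) and 1 without CP 1068 (beside 4.71%), and the count with all CP below was 4 without YF 1069 (beside 4.77%), 3 without CP 1128 or YF 1127 (beside 5.03% and 4.78%) and 2 without CP 1129 (beside 4.38%). The median log2 difference was 0.10, with 37 of 58 higher (63.8%), beside -0.02 and 45.4% for all transcripts. The median was 0.01 without YF 1127 (31 of 59 higher), 0.04 without CP 1068 (32 of 60) and 0.03 with normexp correction (32 of 58).

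SLC5A1 was at -7.53, -6.22 and -6.08 in CP, beside -6.08, -4.95, -4.95 and -6.00 in YF. CP 1068 was the lowest, and CP 1129 was level with YF 1069. A probe was well above background in 2 of 3 CP, so that SLC5A1 passed the filter through YF alone, its difference is not exact and its p carries no weight. Its log2 difference of -1.11 was -0.57 within slide 2, -0.65 without CP 1068, -0.67 with cow 1111 added and -0.29 with normexp correction. The other carrier that passed was the dimmer of 2 SLC7A6 transcripts, named by its p, at -6.07, -5.91 and -6.17 in CP and -5.36, -5.80, -5.49 and -5.85 in YF. All CP lay below all YF, with a log2 difference of -0.43 (SE 0.18, limma p 0.0467, adjusted p 1.0, exact permutation p 0.0571). The p was 0.0911 without CP 1068, 0.0587 without CP 1128, 0.132 without CP 1129, 0.0968 without YF 1069, 0.111 without YF 1072, 0.0925 with slide as a block, 0.33 with all groups in 1 fit, 0.0706 with median centring, 0.0553 with array weights and 0.327 with normexp correction.

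By role, all 5 SLC1 genes tested (median 0.33, and 4 of 5 with normexp correction), 8 of 9 SLC6 (median 0.12, and 5 of 9 with normexp correction and 4 of 9 for the brightest probe), all 3 SLC36 (median 0.60, and 2 of 3 with normexp correction) and 7 of 10 SLC2 (median 0.16) were higher in CP than in YF. The SLC38 carriers were 6 higher and 5 lower (median 0.04, and -0.03 without CP 1129), the light chains 2 and 3 (median -0.06, and 0.08 without YF 1069), the cationic carriers 2 and 1 (median 0.16, and -0.08 without CP 1068), and SLC5 carriers of glucose and inositol 2 and 2. Beside these, all 10 endothelial markers (median 0.45, and 0.15 with array weights) and all 10 leukocyte markers (median 0.22, and 5 of 10 without CP 1129) were higher in CP than in YF, and their part in the differences was not tested. SLC2A1 was at 2.06, 2.05 and 1.76 in CP, with a log2 difference of -0.48 (SE 0.23, limma p 0.0724), -0.62 without YF 1069 (p 0.0264) and -0.20 with slide as a block. CP 1068 and CP 1128 lay just above the lowest YF, at 2.04. SLC2A9 differed by 0.60 (SE 0.30, p 0.0833), 0.93 without CP 1129 (p 0.00733), 0.34 without CP 1068 and 0.11 with normexp correction. Probe 2 of SLC2A9 was dim in all YF and CP, so that these differences are not exact, and its bright probe 1 differed by 0.56. SLC36A4 differed by 0.70 (SE 0.44, p 0.147), 1.14 without CP 1129 (p 0.0235), 1.22 with array weights (p 0.0257) and 0.13 without CP 1128. Its probe 1 was well above background in 0 YF and 1 CP, so that these differences are not exact. The bright probe 2 of SLC36A4 differed by 0.18. The SLC6A9 transcript of chromosome 13 differed by 0.45 (SE 0.28, p 0.148), 0.79 with slide as a block (p 0.0218), 0.64 without YF 1070 (p 0.0352) and 0.25 without YF 1127.

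OF were also compared with CP, which shares OF with the first comparison and CP with the second, so that the 3 do not count as separate evidence. SLC38A11 was higher in OF, SLC38A6 and SLC1A3 were lower, and SLC5A7 was dim in every OF. The limma fit called 0 of 58 transporters at an adjusted p of 0.05, beside 0% of 19914 transcripts. At an unadjusted p of 0.05, 4 of 58 passed (6.9%), beside 4.57%, and 1 of the 4 was SLC5A7. All OF lay above all CP for 0, beside 2.93%, and below for 3 (5.17%), beside 2.86%. SLC5A7 was also 1 of the 3. It was dim in every OF and passed the filter through CP alone, so that it carries no weight in either count. The median log2 difference was -0.09 (0.04 with normexp correction), with 23 higher (39.7%), beside 0.04 and 56.4% for all transcripts, and -0.01 with 30 of 61 higher without CP 1068. FCROS was not run here. The count with all OF below all CP was 7 without CP 1068 (beside 8.82% of all), 6 without OF 0245 (beside 5.6%) and 5 without OF 0234 (beside 4.14%), and the count with all OF above was 3 without OF 2258 (beside 5.32%) and 1 without OF 0234, OF 0245, CP 1128 or CP 1129 (beside 3.85%, 6.63%, 5.41% and 4.84%). With cow 1111 added, 1 passed the unadjusted p (beside 5.39%). With the 2 OF biopsies that stood apart left out, 12 of 60 passed the unadjusted p (20.0%), beside 7.13% of all, 9 had all OF above all CP (15.0%, beside 12.3%) and 10 had all OF below (16.7%, beside 10.6%).

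SLC38A6 was at -1.06, -0.90 and -1.36 in CP, and all 4 OF, from -1.67 to -1.90, lay below them. OF differed from CP by -0.65 log2 units (SE 0.17, limma p 0.00584, adjusted p 0.904, exact permutation p 0.0286). Its p stayed between 0.000557 and 0.0372 over the alternatives, with differences from -0.54 to -0.78. SLC5A7 was at -7.18, -7.36 and -6.82 in CP, above all 4 OF, and probe 1 was at least 1.98-fold higher in CP than in OF, where it was dim. It passed the filter through CP alone, and with all 4 OF dim the log2 difference and its test say nothing of its size. Cow 1111, at -8.65, lay among the OF.

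SLC38A11 differed by 1.26 between OF and CP (SE 0.42, limma p 0.0187, adjusted p 0.912, exact permutation p 0.0857), and by 1.18 with slide as a block. CP 1128, at -3.21, lay among the OF. The p was 0.0614 without CP 1068, 0.0735 without CP 1129 (log2 difference 0.92), 0.117 with cow 1111 added (0.86) and 0.0615 with all groups in 1 fit. SLC1A3 was at -0.76, -1.82 and -1.93 in CP, and OF 0234 lay among them while the other OF lay below. The means differed by -1.62 log2 units (SE 0.62, limma p 0.0333, exact permutation p 0.114), and -2.38 with the 2 OF left out (p 0.00131). The p was 0.0786 without OF 0233, 0.0779 without OF 0245, 0.0563 without OF 2258, 0.121 without CP 1068 and 0.0518 without CP 1128, 0.0777 with slide as a block, 0.194 with cow 1111 added and 0.511 with array weights. SLC7A3, a cationic carrier, was at -4.48, -4.35 and -4.16 in CP, above all OF (-4.59, -4.54, -4.96 and -4.86), with a log2 difference of -0.41 (SE 0.18, limma p 0.0531, exact permutation p 0.0571); it was 0.21 for the brightest probe, 0.03 with normexp correction, -0.14 with cow 1111 added and -0.47 with quantile normalization (p 0.0226).

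By role, 4 of 5 SLC1 carriers were lower in OF than in CP (median -0.56, and 3 of 5 with normexp correction), 7 of 11 SLC38 (median -0.07, and 0.06 without OF 2258), 6 of 10 SLC6 (median -0.10, and 0.10 with normexp correction), 6 of 10 SLC2 (median -0.14, and 0.07 with normexp correction) and 3 of 5 light chains (median -0.23, and 0.09 with array weights). The cationic carriers were 2 higher and 1 lower (median 0.02), the SLC36 genes 1 and 2, and SLC5 carriers of glucose and inositol 1 and 2. Beside these, 8 of 11 epithelial markers were lower in OF than in CP (median -0.33, and 0.35 without OF 2258) and 9 of 10 stromal markers (median -0.54), 9 of 10 endothelial markers (median -0.31) and 8 of 10 leukocyte markers (median -0.14, and 0.05 without CP 1129), while all 11 smooth muscle markers were higher (median 1.94, and 0.04 with the 2 OF left out). Their part in the differences was not tested.

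The 22 carriers named for their place in ruminant histotroph were all on the array, SLC7A1 dim. Between OF and YF 8 of 21 were higher and 13 lower (median -0.23), between CP and YF 11 and 10 (median 0.07, and -0.02 without CP 1068), and between OF and CP 9 and 11 of 20 (median -0.08, and 0.02 with normexp correction). Among the 13, SLC38A4, SLC5A1, SLC5A11 and SLC6A6 passed the filter through YF alone, which favours a lower value in OF. SLC5A1 between CP and YF, and SLC38A4 and SLC5A11 between OF and CP, also passed through the higher group alone. No result is drawn from these counts and medians.

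The genes that use or sense what the carriers bring in were read as lists. Of 17 glycolytic genes, 13 were higher in OF than in YF and 4 lower (median 0.16), but 8 and 9 without OF 2258. HK2, the hexokinase that traps glucose in the cell, was at -4.73, -4.18, -3.91 and -3.60 in YF, -3.83, -2.61, -3.05 and -3.15 in OF and -4.44, -3.94 and -4.48 in CP. All OF lay above all CP, beside 2.93% of all transcripts, and 3 of 4 OF lay above all YF. HK2 was the 1 gene of the 17 at an unadjusted limma p of 0.05 between OF and YF, beside 2.42% of all transcripts. Its log2 difference between OF and YF was 0.95 (SE 0.31, limma p 0.0156, adjusted p 0.999, exact permutation p 0.0571), with a p of 0.00424 to 0.0446 on leaving out any 1 cow and 0.178 (log2 difference 0.46) without the 3 biopsies. Between OF and CP it was 1.13 (SE 0.30, limma p 0.00692, adjusted p 0.904), and 12 of 17 glycolytic genes were higher in OF (median 0.13, and -0.02 without OF 2258). There HK2 and ENO2, an enolase, passed an unadjusted limma p of 0.05, beside 4.57% of all transcripts, and ENO2 differed by -1.10 (limma p 0.04). Its p was 0.103 without CP 1068, 0.0808 without CP 1128, 0.0775 without CP 1129, 0.0581 without OF 0245, 0.0579 with slide as a block, 0.0666 with array weights and 0.144 with cow 1111 added, and it differed by -0.68 without OF 2258. Between CP and YF, 10 were higher and 7 lower (median 0.02, and -0.03 without YF 1072).

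Of 14 genes of the amino acid response, 3 were higher in OF than in YF and 11 lower (median -0.08), with 0 at an unadjusted limma p of 0.05. CTH, of cysteine synthesis, had all OF above all YF (log2 difference 0.64, limma p 0.0776, exact permutation p 0.0286), beside 0.931% of all transcripts, and was highest in OF 2258. Between CP and YF 5 were higher and 9 lower (median -0.14, and 0.04 without CP 1128), 2 of them at an unadjusted p of 0.05, beside 3.03% of all transcripts, and 4 had all CP below all YF, beside 2.32%. PSPH, of serine synthesis, was lower in CP by -2.01 (SE 0.60, limma p 0.0104, adjusted p 1.0; -1.12 with slide as a block, and -1.3 with cow 1111 added, p 0.132), and VLDLR, a lipoprotein receptor, by -1.08 (SE 0.27, limma p 0.0039). Between OF and CP 10 were higher and 4 lower (median 0.19). VLDLR was there at 0.68 (limma p 0.0383), and 4.57% of all transcripts passed an unadjusted p of 0.05. Its p was 0.109 without CP 1068, 0.137 without CP 1129, 0.071 without OF 0233, 0.0893 without OF 0245, 0.0888 with slide as a block, 0.313 with array weights (log2 difference 0.26) and 0.205 with cow 1111 added (0.43).

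Of 18 genes by which mTORC1 senses amino acids, 10 were higher in OF than in YF and 8 lower (median 0.02, and -0.01 without OF 0245), 7 and 11 between CP and YF (median -0.04, and 0.01 with median centring), and 10 and 8 between OF and CP (median 0.06, and -0.01 without CP 1068). Of 10 genes of arginine and polyamine use, 7 and 3 (median 0.08), 8 and 2 (median 0.08, and -0.02 without YF 1069) and 4 and 6 (median -0.05, and 0.05 without CP 1129) were higher and lower in the same order. Of 9 partner heavy chains and other nutrient carriers, it was 6 and 3 (median 0.07, and -0.05 without OF 0233), 5 and 4 (median 0.02, and -0.03 without YF 1127) and 5 and 4 (median 0.01, and -0.05 with quantile normalization), with single differences from -1.31 to 0.71 between OF and CP. At an unadjusted limma p of 0.05, 0 genes of these 3 lists passed in any comparison. No probe carried the symbol CASTOR1, AZIN2 or SLC43A1, and ARG1 was dim.

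Most carriers were read by a pair of probes, so that the probes can be held against each other. Of 86 transcripts, 85 had 2 probe sequences, and in 11 the pair overlapped by 31 to 59 bases. Where the pair lay apart and both were measured, in 29 transcripts, the sign of OF minus YF was the same in 21 and opposite in 8, with a median gap of 0.10 between the differences. The gap was largest for SLC2A11, a sugar carrier named after its values were seen: probe 1 differed by 0.10, while probe 2 differed by -0.72, with all OF below all YF and all CP. For SLC6A18 probe 1 was dim on all arrays and probe 2 well above on all. The 30 sequences printed at 2 spots repeated with an SD of 0.10 where they were well above background and 0.43 elsewhere. The 167 distinct member sequences matched all 50922 in GC content (median 45.0% for both), and AATAAA stood in 12 of them (7.19%, beside 7.97%).

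**Figure D5:**
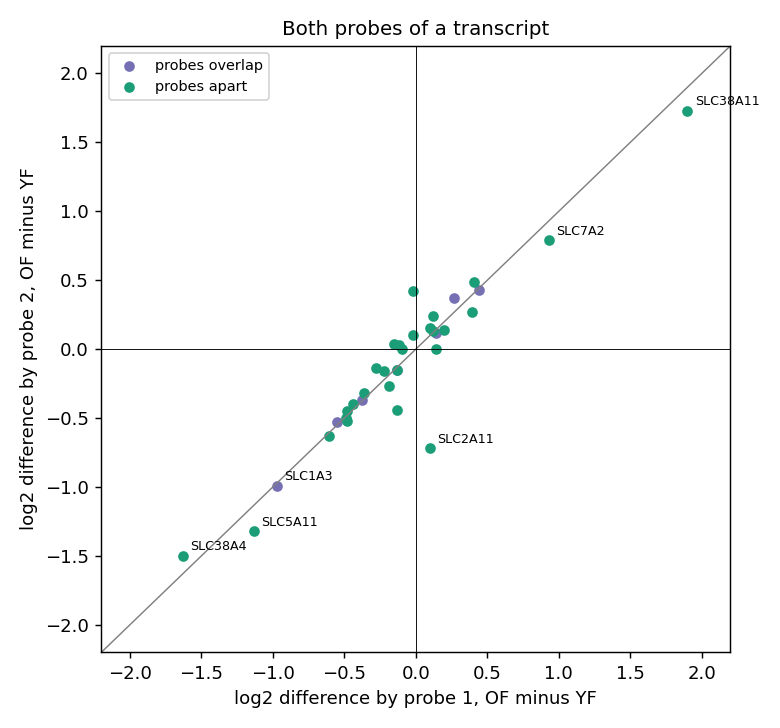
Log2 difference OF minus YF of probe 1 against that of probe 2 for transporter transcripts with both probes well above background in all cows of OF or all of YF, with pairs that overlap in sequence in another colour and equality as a line. For SLC2A11 probe 1 is at 0.10 and probe 2 at -0.72.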

How the data were processed

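The authors deposited, for each of 12 arrays, the Cy3 intensity of every spot as read by Agilent Feature Extraction 10.7.3.1, corrected for local background and with no normalization between arrays. Of 61549 gene spots, those of 66 probes were dropped because Feature Extraction marked them as outliers in 1 array or more. Log2 was taken, the 75th percentile of the array subtracted, and probes averaged per transcript. Symbols came from the annotation in the files, with positions on UMD3.1. A transcript was tested where a probe was well above background on every array of either group. Comparisons used limma 3.58.1 in R 4.3.3, two-sided, with Benjamini-Hochberg adjustment over all transcripts tested, at an adjusted p of 0.05. FCROS was coded from its description (trim 0.25, f-value beyond 0.025 or 0.975, fold of 1.5 in either direction, over 16 pairwise ratios). Both were tested on simulated data. Exact permutation tests over cows were two-sided, over 70 arrangements for 4 against 4 and 35 for 3 against 4. Summaries were made in Python 3.11.15 with pandas 2.3.3 and numpy 2.4.6, and figures with matplotlib 3.10.9.

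The files hold no counts, and the number of arrays limits the precision. A gene stands for its brightest transcript. The genes named were, between OF and YF, those with groups that did not overlap or an unadjusted limma p of 0.05 and the 10 tested with the largest difference, in each comparison with CP the 5 with the smallest p, those called by FCROS, and the 22 histotroph carriers whatever their values, 32 genes in all. Members and lists were chosen with earlier results of these data known. Lists covered the carriers by role, partner heavy chains and other nutrient carriers, glycolysis, amino acid response, sensing by mTORC1, arginine and polyamine use, and markers of epithelium, stroma, smooth muscle, endothelium, leukocytes, mast cells, nerve and erythrocytes. Alternatives were normexp background correction (offset 50), quantile normalization, median centring, the brightest probe, no filter, slide as a block, slide 2 alone, all groups in 1 fit, array weights, FCROS without trimming or with a fold of 1.3 or 2, cow 1111 added, and each cow left out. Means without dim probes, and the 3 biopsies OF 2258, OF 0234 and YF 1069 left out together, were added after seeing the data. The values of 1 carrier are not reported here or drawn in the figures, though the counts include it.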

Additional observations from a re-analysis of the deposited data

Results flagged for a closer look

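Of 58 groups of 4 cows examined over the named carriers, 2 held a cow that lay far from the other 3 by Dixon's test, and both times it was OF 2258. Chance alone gives about 1 in 20 groups. SLC2A3 was at -0.34 in OF 2258, above the other OF at -3.58 to -3.19. SLC7A8 was at -3.88 in OF 2258, below the other OF at -2.57 to -2.45. OF 2258 also had the lowest sum of epithelial markers (16.5) and the highest of smooth muscle markers (1049.6); the part of either in these values was not tested.

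Cow 1111, which is in no comparison, had SLC38A1 at -0.73, above all 11 other cows, the highest of which was YF 1072 at -1.11. The difference was not tested.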

How the results depend on the processing

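The count of transporters called by limma at an adjusted p of 0.05 was 0 in every comparison and alternative run. Of 191 recomputed counts and medians 141 stayed within 1.5 times the count, or 1 SD, of the value reported. Of 701 recomputed differences of single carriers, 681 moved by less than 1 SD, 17 by more with no change of sign in a called value, and 3 called values changed sign. Called here covers FCROS, an unadjusted limma p of 0.05 and groups that did not overlap. SLC1A3 between OF and YF, called by FCROS, was 0.49 with array weights. SLC7A3 between OF and CP, where all OF lay below all CP at a limma p of 0.0531, was 0.03 with normexp correction and 0.21 for the brightest probe. Of 29 named differences between OF and YF, 11 kept their sign in all alternatives. The cause was not tested for any of these changes.

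Between OF and YF, the count at an unadjusted limma p of 0.05 was 2 with quantile normalization or all groups in 1 fit, 3 with no filter or slide as a block, 9 with array weights (15.5%, beside 11% of all transcripts), 4 without the 3 biopsies, and 1 to 4 on leaving out 1 cow. The count with all OF above all YF was 7 without the 3 biopsies and 1 to 3 on leaving out 1 cow. The count with all OF below was 1 with no filter, 4 without the 3 biopsies, and 0 to 2 on leaving out 1 cow. FCROS called 5 over-expressed without the 3 biopsies and 3 to 8 on leaving out 1 cow, and it called 5 under-expressed for the brightest probe or without the 3 biopsies, and 3 to 9 on leaving out 1 cow. These FCROS counts include dim transcripts. The median difference ran from -0.13 to 0.03 on leaving out 1 cow. Between CP and YF, the count at an unadjusted p was 0 with normexp correction or all groups in 1 fit, 1 with median centring, slide as a block or cow 1111 added, 6 with array weights (beside 6.56%), 4 without YF 1069, and 0 to 5 on leaving out 1 cow. Between OF and CP, it was 12 with array weights (20.7%, beside 16.3%), 12 without OF 2258 and OF 0234 (20.0%, beside 7.13%), 1 with cow 1111 added, and 3 to 6 on leaving out 1 cow. Leaving out the 3 biopsies was chosen after seeing the data.

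With 3 or 4 cows a group, differences that lie inside the confidence interval would pass unseen, and signal over background limits what the dim carriers can show. Age and parity cannot be told apart, and all 3 CP lay on slide 2. The biopsies differ in cell content, which was not measured apart from marker RNA.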

Other observations

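Cow 1111 is in no comparison. SLC38A11 was at -2.52 in it, within the range of OF (-3.50 to -2.41) and above all YF and CP. SLC1A3 was at -3.85, below all YF and CP and above OF 0233. SLC1A1 was at 4.62, beside 4.66 in YF 1072, the highest of all cows. Its sums of epithelial, smooth muscle and stromal markers, 99.1, 49.5 and 167.8, lay within the range of the other cows.

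HBB, the beta chain of hemoglobin, was higher in CP than in YF by 1.81 (limma p 0.0441; 0.135 without CP 1068, 0.152 without CP 1129, 0.102 without YF 1070, 0.0907 without YF 1072, 0.263 with slide as a block, where it was 0.91, 0.0538 for the brightest probe, 0.173 with cow 1111 added and 0.0738 with array weights) and differed by -2.11 between OF and CP (limma p 0.00593; -1.53 with cow 1111 added, p 0.057, and -1.21 with array weights, p 0.0493). Among CP it was at 1.39, -0.71 and 1.75. HBA, the alpha chain, differed by 0.23 and 0.00 in the same comparisons, and AHSP, its stabilizer, by -0.52 (limma p 0.0224, with all CP below all YF; 0.0757 without CP 1068, 0.0517 without CP 1128, 0.063 without YF 1072 and 0.078 with slide as a block) and 0.44.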
